A study of Mus musculus with 6 samples.

Results

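The genes described here encode the parts of antigen presentation by MHC class II. They are Cd74, H2-Aa, H2-Ab1, H2-Eb1, H2-DMa and Ciita, 6 of the 18193 genes that the array annotation names, and all of their 14 probe sets were followed among the 45037 tested. They were chosen by their log2 levels on these same 6 arrays, for a joint change between genotypes. Their genotype differences are therefore given as a description and without a test.

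RNA was measured on Affymetrix mouse arrays, on which a probe set is a group of short probes for a transcript. The cells were early thymic progenitors, cells that have just entered the thymus and can still leave the T lineage, sorted as lineage-negative, CD44+, CD25- and kit+ cells from C57Bl/6 mice killed at 10 weeks of age. Of the 6 arrays, 3 carried RNA of Tcf1-/- and 3 of Tcf1-/+ animals. The titles give Tcf1-/+ for the controls while another label field calls them wild type. Tcf1 is a DNA-binding factor of early T-cell development, encoded by Tcf7, which was not analysed here. The labels call the arrays of a genotype biological replicates without saying how many animals gave an array. RNA came from few cells and was amplified before labelling.

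MHC class II molecules are pairs of an alpha and a beta chain that show peptides from endosomes to CD4+ T cells. In mice the pairs are I-A, from H2-Aa and H2-Ab1, and I-E, whose beta chain comes from H2-Eb1. Cd74 encodes the invariant chain, which fills the groove until it is cut away, and H2-DMa encodes a chain of H2-M, which then exchanges its remnant for a peptide. Ciita is the co-activator that switches these genes on together, through RFX, CREB and NF-Y proteins that sit on shared X and Y boxes of their promoters. In the thymus, class II is carried mainly by epithelial cells, dendritic cells and B cells, and mouse T-lineage cells carry little.

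Matches to these promoter boxes are shown because the members were followed as genes that move together. Promoter sequence was taken from RefSeq on build GRCm38.p6, as the 250 bases before an annotated start, 5′ to 3′ on the strand of the gene. Windows were at hand for 3 of the members, H2-Aa, H2-Eb1 and H2-DMa. Capitals mark the Y box core CCAAT or its reverse complement ATTGG, the X box core AACNGATG, and TGACGTCA, the element bound by CREB, which was added to the search after the sequences had been read. Both strands were searched. The windows lie at chr17:34287824-34288073 on the minus strand for H2-Aa, chr17:34305617-34305866 on the plus strand for H2-Eb1, and chr17:34144999-34145248 on the plus strand for H2-DMb2, a beta chain of H2-M.
H2-Aa: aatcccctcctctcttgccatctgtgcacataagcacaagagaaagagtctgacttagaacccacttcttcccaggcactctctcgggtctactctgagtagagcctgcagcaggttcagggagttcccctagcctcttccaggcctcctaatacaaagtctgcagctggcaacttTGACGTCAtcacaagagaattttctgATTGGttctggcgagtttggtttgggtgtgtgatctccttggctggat
H2-Eb1: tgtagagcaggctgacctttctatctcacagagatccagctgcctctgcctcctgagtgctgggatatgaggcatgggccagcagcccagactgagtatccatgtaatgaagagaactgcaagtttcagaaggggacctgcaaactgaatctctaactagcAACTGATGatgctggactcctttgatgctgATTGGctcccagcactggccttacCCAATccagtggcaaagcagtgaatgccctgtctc
H2-DMb2: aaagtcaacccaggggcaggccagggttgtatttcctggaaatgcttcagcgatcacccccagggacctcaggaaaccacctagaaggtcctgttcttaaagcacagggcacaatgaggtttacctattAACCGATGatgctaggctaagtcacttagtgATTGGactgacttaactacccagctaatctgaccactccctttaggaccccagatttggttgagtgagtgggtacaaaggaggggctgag

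In H2-Eb1 the X box core began at position -89 from the annotated start and 22 bases separated it from ATTGG. H2-DMb2, which is not a member, held the same order with 23 bases between, its X box core beginning at -121. H2-Aa held no AACNGATG in this window. It held TGACGTCA at -74 and ATTGG at -48. Over all 32851 windows of this length, 33.8% held CCAAT, 1.98% held AACNGATG and 1.55% held TGACGTCA on either strand. The X box core followed by ATTGG after 10 to 40 bases was met in 13 windows, or 0.0396%, of which those of H2-Eb1, H2-Eb2, H2-DMb1 and H2-DMb2 were 4. Neither of the 2 windows of H2-DMa held AACNGATG or TGACGTCA, and 1 held CCAAT. The windows of H2-Oa and H2-Ob held CCAAT on either strand but no AACNGATG. The pair was thus met in 1 of the 3 members with a window and in 3 of 5 other class II chain genes. A match describes the letters and not the binding of a factor.

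Values are log2 levels per probe set as deposited, and a difference is the mean of the Tcf1-/- arrays less that of the Tcf1-/+ arrays, in log2 units. The 95th percentile of 27 control probe sets for bacterial transcripts was 5.21 and is called background. Each array correlated with the others at 0.913 to 0.933 over all probe sets, apart from Tcf1-/- replicate 2, which correlated with the other 5 at 0.870 to 0.893. The 3 named Y-linked genes had mean levels of 4.01 to 5.0 on Tcf1-/- replicate 1 and Tcf1-/+ replicates 1 and 3, and of 8.42 to 9.39 on the rest. The genes of the sort gate were above background on every array. Kit lay between 7.45, on Tcf1-/- replicate 2, and 10.80, and Cd44 between 9.60 and 10.39. Il2ra, which encodes the CD25 that was selected against, lay between 9.22 and 10.97 on its brightest probe set. Over all probe sets, limma called 0 of 45037 at an adjusted p of 0.05, or 0.0%, while 2917, or 6.48%, had an unadjusted p under 0.05. The lowest adjusted p from limma was 0.315.

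All 6 members had a lower Tcf1-/- mean on their brightest probe set, and the median difference was -0.90, beside a median of 0.04 and 45.7% lower means over all genes. Of the 14 member probe sets 13 had a lower mean, beside 47.0% of all probe sets, and their median difference was -0.59. The genotypes did not overlap for Cd74 and H2-DMa, 2 of the 6 genes, beside 4.94% of all genes without overlap and lower in Tcf1-/-. Among probe sets, 2 of 14 did not overlap and were lower and 0 were higher, beside 5.27% and 6.51% of all probe sets. These shares stand only as background, since this contrast chose the members. Array replicates differed more than the genotypes did for several of them. The median share of a member's variance over the 6 arrays that lay between genotypes was 28.7%, and over all genes it was 14.0%. In sorted cell populations, fewer cells of a type and less RNA per cell cannot be told apart.

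Cd74, the invariant chain, has 1 probe set. It was at 8.53, 9.05 and 8.46 on Tcf1-/- replicates 1, 2 and 3 and at 9.44, 11.12 and 10.32 on Tcf1-/+ replicates 1, 2 and 3. Every Tcf1-/- array lay below every Tcf1-/+ array, with Tcf1-/+ replicate 1 nearest to the Tcf1-/- arrays. The means were 8.68 ± 0.32 (SD, n = 3) and 10.29 ± 0.84 (SD, n = 3), a difference of -1.61 (SE 0.46, with every SE of a difference estimated by limma), or 3.06-fold. Leaving out single arrays gave differences between -2.04 and -1.20. Among the members, the largest share of variance between genotypes was that of Cd74, at 70.8%.

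H2-DMa, the alpha chain of the peptide editor, was at 7.91, 7.22 and 7.70 in Tcf1-/- and at 8.0, 9.53 and 9.21 in Tcf1-/+ on its brighter probe set. The genotypes did not overlap, though Tcf1-/- replicate 1 and Tcf1-/+ replicate 1 lay close together. The difference was -1.30 (SE 0.45). Its second probe set, 1459872_x_at, was at 5.77, 5.74 and 5.06 against 6.38, 6.48 and 5.75, a difference of -0.68 (SE 0.32) in which Tcf1-/+ replicate 3 overlapped the Tcf1-/- arrays.

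H2-Eb1, the I-E beta chain, was at 5.93, 6.63 and 7.26 in Tcf1-/- and at 7.07, 9.42 and 8.40 in Tcf1-/+. Tcf1-/+ replicate 1 lay below Tcf1-/- replicate 3, so the genotypes overlapped, and the other Tcf1-/+ arrays lay above every Tcf1-/- array. The difference was -1.69 (SE 0.66), or 3.22-fold. It was -2.30 without Tcf1-/+ replicate 1 and -1.13 without Tcf1-/+ replicate 2. C57Bl/6 mice make no I-E pair at the surface, since the alpha chain gene H2-Ea is defective in them, and RefSeq lists H2-Ea as a transcribed pseudogene.

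H2-Aa, the I-A alpha chain, has 4 probe sets and was the member that varied most among the controls. Its brightest, 1435290_x_at, was at 7.97, 9.54 and 8.57 in Tcf1-/- and at 6.81, 11.03 and 9.75 in Tcf1-/+. The lowest and the highest array were thus both Tcf1-/+, replicates 1 and 2, which lay 4.22 apart. The difference of means was -0.50 (SE 1.10), and it was -1.70 without Tcf1-/+ replicate 1 and 0.41 without Tcf1-/+ replicate 2. Probe set 1452431_s_at was at 5.63, 7.06 and 7.54 against 6.12, 10.24 and 8.79, a difference of -1.64 (SE 1.10). Probe set 1438858_x_at differed by -0.49, and the fourth, 1443783_x_at, was under background on all arrays. The suffixes _s_at and _x_at mark probe sets whose probes can match other transcripts, and all 4 of H2-Aa carry them.

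The 3 probe sets of H2-Ab1, the I-A beta chain, disagreed on the order of the Tcf1-/- arrays. The brightest, 1450648_s_at, was at 7.72, 11.28 and 9.15 in Tcf1-/- and at 8.05, 11.09 and 10.31 in Tcf1-/+. Its highest value belonged to Tcf1-/- replicate 2, and the difference was -0.43 (SE 1.14). It was 0.40 without Tcf1-/- replicate 1, 0.20 without Tcf1-/+ replicate 2 and -1.38 without Tcf1-/- replicate 2. On 1451721_a_at the same Tcf1-/- replicate 2 was the lowest array, at 6.14, beside 6.69 and 6.58 on the other Tcf1-/- arrays and 6.21, 9.49 and 8.41 in Tcf1-/+. That probe set differed by -1.57 (SE 0.81), and 1425477_x_at by -1.37 (SE 0.63), with 6.77, 6.83 and 6.01 against 6.57, 8.90 and 8.24. On all 3 probe sets Tcf1-/+ replicate 1 lay within the range of the Tcf1-/- arrays.

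Ciita, the co-activator, has 3 probe sets. Its brightest probe set was at 5.68, 6.84 and 6.02 in Tcf1-/- and at 5.76, 6.27 and 6.64 in Tcf1-/+, with a difference of -0.04 (SE 0.39), or between -0.37 and 0.21 when single arrays were left out. The highest array was Tcf1-/- replicate 2. Of its variance, 0.21% lay between genotypes. The remaining probe sets differed by 0.13 and -0.42, and their means lay between 4.77 and 5.23, near or under background, so that small differences of Ciita are not well measured.

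**Figure D1:**
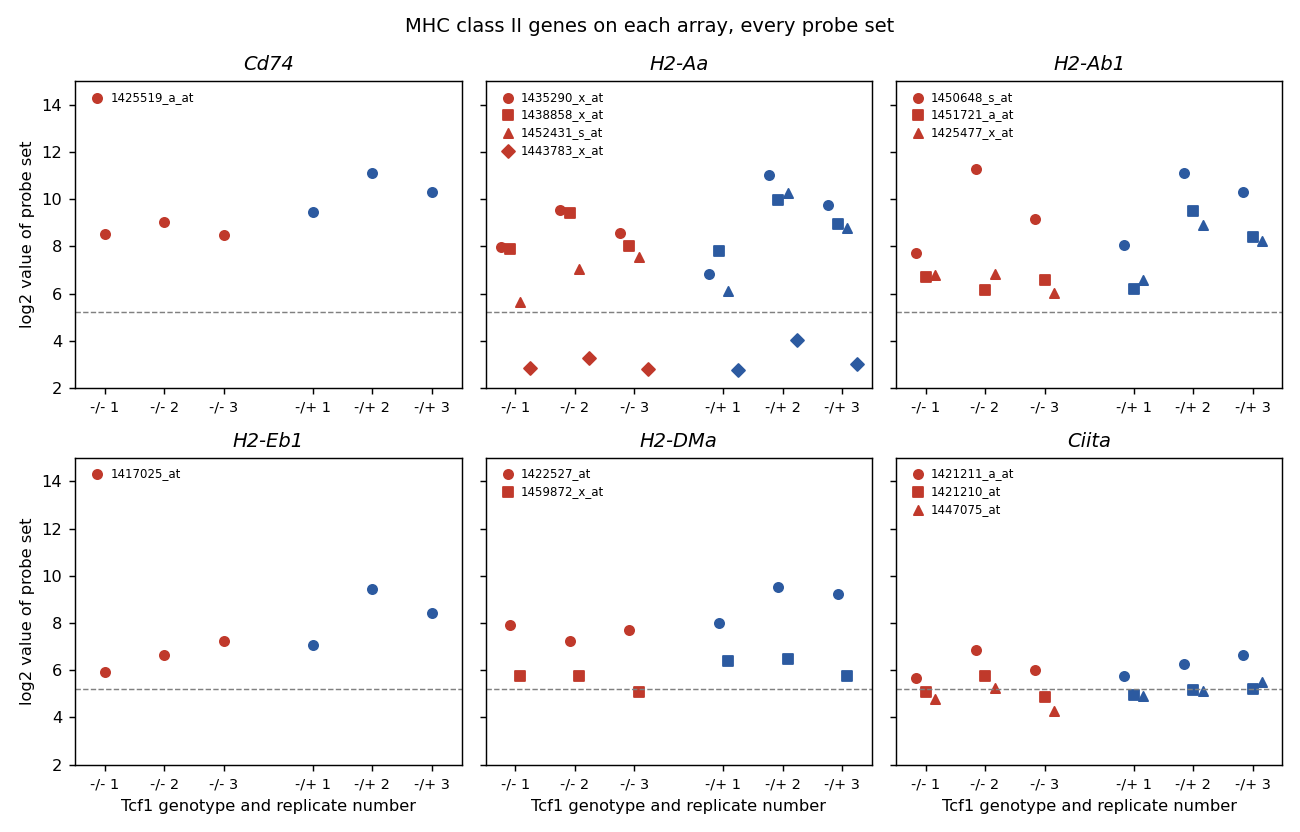
Log2 value of every probe set (marker shape) of the 6 class II genes on each array, with Tcf1-/- in red, Tcf1-/+ in blue and the background level of 5.21 as a dashed line. Tcf1-/+ replicates 2 and 3 are the high arrays on most probe sets, Tcf1-/+ replicate 1 lies among or near the Tcf1-/- arrays, and the 3 probe sets of Ciita stay between 4.27 and 6.84.

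The members were chosen on these same arrays for a joint change, so a shared order of the arrays is given only as a description. The order was largely shared by their probe sets, several of which belong to the same gene. Of the 11 member probe sets with a mean above background, 9 were highest on Tcf1-/+ replicate 2 and 2 on Tcf1-/- replicate 2. Tcf1-/+ replicate 3 was among the 2 highest arrays for 8. The lowest array was Tcf1-/- replicate 1 for 4, Tcf1-/- replicate 3 for 3, Tcf1-/- replicate 2 for 2 and Tcf1-/+ replicate 1 for 2. Averaged over the 6 genes after centring each on its mean, the arrays lay at -1.04, 0.10 and -0.46 in Tcf1-/- and at -0.80, 1.42 and 0.78 in Tcf1-/+. Tcf1-/+ replicate 1 thus lay below 2 of the 3 Tcf1-/- arrays. The 3′ control probe set of Gapdh exceeded its 5′ one by 2.37, 2.78 and 2.33 on Tcf1-/- replicates 1, 2 and 3. On Tcf1-/+ replicates 1, 2 and 3 the gap was 2.885, 1.94 and 1.74, so it was smallest on replicates 2 and 3. For Tfrc the gaps were -0.88, 0.05 and -0.70 in Tcf1-/- and -0.62, -1.08 and -0.64 in Tcf1-/+. The part of RNA quality, which such gaps reflect, in the array order was not tested.

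The SD among Tcf1-/+ arrays was 2.16 for H2-Aa, 1.58 for H2-Ab1 and 1.18 for H2-Eb1, which was larger than for 99.7%, 98.6% and 95.4% of all genes. For Cd74 and H2-DMa it was 0.84 and 0.80, at the percentiles 87.4 and 86.3, and for Ciita 0.44, at 63.1. The percentiles are a description, since the members were chosen on these arrays. All genes here include 5036 of 18193 with both means under background. Among Tcf1-/- arrays the SD of Cd74 was 0.32 and that of H2-DMa 0.35, below the median of all genes. The controls were thus the more spread-out genotype for the chains and for Cd74 and H2-DMa, with H2-Ab1 as the exception at 1.79 in Tcf1-/- on its brightest probe set. Y-linked signal differed between arrays of a genotype, and the genotype difference of Cd74 was -1.35 on the 3 arrays with low and -2.36 on the 3 with high Y-linked signal. Those of H2-Eb1 were -1.80 and -2.48, of H2-DMa -0.69 and -2.07, of H2-Aa -0.31 and -1.97 and of H2-Ab1 -1.46 and -0.87. Ciita was at -0.52 and 0.16. Each of these splits sets 1 array against 2.

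The other class II chains were read next. Of 5 measured genes of the list, 4 had a lower and 1 a higher Tcf1-/- mean, the median difference was -0.27, and 0 passed limma's adjusted threshold in either direction. H2-Ob, the beta chain of H2-O, which holds H2-M in check, was at 9.75, 7.09 and 7.76 in Tcf1-/- and at 10.44, 9.14 and 10.09 in Tcf1-/+. Tcf1-/- replicate 1 lay above Tcf1-/+ replicate 2, and the difference was -1.69 (SE 0.74, adjusted p = 0.801 from limma). H2-Oa, its alpha chain, differed by -0.27 (SE 0.54), with all but Tcf1-/+ replicate 2, at 8.39, between 6.49 and 7.31. H2-Eb2, an I-E-like beta chain, differed by -0.41 (SE 0.33), or -0.15 without Tcf1-/+ replicate 1 and -0.21 without Tcf1-/- replicate 1. Its values lay between 4.89 and 6.24, near background.

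H2-DMb2 was measured by 3 probe sets that disagreed. On the brightest it was at 7.08, 7.55 and 9.45 in Tcf1-/- and at 6.90, 7.43 and 9.89 in Tcf1-/+, a difference of -0.04 (SE 0.97) with replicate 3 high in both genotypes. On 1443686_at it was at 6.76, 4.93 and 7.37 against 6.78, 8.85 and 9.35, and on 1443687_x_at the difference was -2.11. H2-DMb1 is a close copy of this gene, and signal of the pair cannot be told apart where probes match both. H2-Ea was at 7.23 to 8.09 on its brightest probe set, with a difference of 0.05 (SE 0.29), and its remaining probe sets lay under background on every array.

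Genes of class II processing and turnover, among them Ctss and Cd83, had mostly higher Tcf1-/- means. Of 12 measured genes of this list, 9 had a higher and 3 a lower Tcf1-/- mean, with a median difference of 0.46. Among all 18193 genes, 9881 had a higher mean. The lower genes of the list were Ctsb, at -0.31, Ctsl, at -0.04, and Marchf1, at -1.02, on their brightest probe sets. Marchf1 was at 7.84 on Tcf1-/+ replicate 2 and between 4.27 and 4.84, under background, on every other array. The other probe sets of Ctsb had differences from -1.31 to 0.80. With limma 0 passed the adjusted threshold, and 1 was higher at an unadjusted p under 0.05, beside 3.38% of all genes. The genotypes did not overlap for 2 genes, both higher in Tcf1-/-, beside 7.22% of all genes. Ctss, the protease that makes the last cut in the invariant chain of antigen-presenting cells, was at 10.86, 11.81 and 11.29 in Tcf1-/- and at 9.71, 10.10 and 9.70 in Tcf1-/+. Every Tcf1-/- array lay above every Tcf1-/+ array, with a difference of 1.48 (SE 0.30, adjusted p = 0.467 from limma). Cd83, whose protein keeps class II at the surface, was the second gene without overlap. It was at 6.31, 6.10 and 8.14 in Tcf1-/- and at 4.92, 5.26 and 5.98, near background, in Tcf1-/+. Its difference was 1.46 (SE 0.61), or 0.82 without Tcf1-/- replicate 3. Ifi30, an endosomal thiol reductase that unfolds antigens, differed by 1.07 (SE 0.49), and Sppl2a, which clears the membrane stub of the invariant chain, by 0.57 (SE 0.33), or 0.29 without Tcf1-/- replicate 2, and both overlapped.

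Of the 10 promoter factors, 5 had higher and 5 lower means, and the genotypes did not overlap for 2 lower and 2 higher genes, beside 4.94% and 7.22% of all genes. With limma 0 passed the adjusted threshold, and at an unadjusted p under 0.05 there were 2 lower and 2 higher genes, beside 3.4% and 3.38% of all genes. Among the subunits of RFX, which binds the X box, Rfxap was at 8.42, 8.04 and 8.34 against 7.97, 5.98 and 7.07, a difference of 1.27 (SE 0.51), or 0.75 without Tcf1-/+ replicate 2. Rfxank differed by 0.69 (SE 0.25) on a probe set with the suffix _s_at, and by 0.32 and 1.11 on its probe sets without such a suffix, both with overlap. On their brightest probe sets both were higher on every Tcf1-/- array than on every Tcf1-/+ array. Rfx5, the DNA-binding subunit, differed by 0.25 (SE 0.65). Among the subunits of NF-Y, which binds the Y box, Nfyc was at 6.52, 7.16 and 6.48 against 8.17, 8.27 and 7.25, a difference of -1.18 (SE 0.36), and Nfya differed by -0.62 (SE 0.24), or by -0.26 over the mean of its probe sets. Both were lower on every Tcf1-/- array, while Nfyb differed by -0.03 (SE 0.56). Adjusted p-values of the 4 genes without overlap lay between 0.658 and 0.764 with limma.

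Of 11 measured genes upstream of Ciita, 9 had higher and 2 lower means, with a median of 0.06, and 0 passed limma's adjusted threshold. There was no overlap for 2, both higher, beside 7.22% of all genes. Ifngr2, a chain of the interferon gamma receptor, was at 8.69, 7.99 and 8.27 in Tcf1-/- and at 7.12, 6.45 and 7.35 in Tcf1-/+. The genotypes did not overlap, and the difference was 1.35 (SE 0.32, adjusted p = 0.534 from limma), with -0.22 on its other probe set. Irf2, an interferon regulatory factor, also did not overlap, at 0.97 (SE 0.50), and at 0.42 without Tcf1-/- replicate 2, which was at 9.46 beside 7.86 and 7.73 on the other Tcf1-/- arrays. Irf1, which activates Ciita in response to interferon gamma, differed by 0.59 (SE 0.34), or 0.25 without Tcf1-/+ replicate 3, and Irf8, a factor of dendritic and monocyte development, by -1.17 (SE 0.55), with -0.74 without Tcf1-/+ replicate 3 and 0.26 on its other probe set. Spi1, which encodes PU.1, differed by 0.01 (SE 0.29). The repressor gene Prdm1 was under background in both genotypes.

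MHC class I genes, which present cytosolic peptides to CD8+ T cells, were set beside class II. Of 14 genes, 10 had a higher and 4 a lower Tcf1-/- mean, with a median of 0.15, and 0 passed limma's adjusted threshold. The genotypes did not overlap for 4 of the 14, all higher in Tcf1-/-, beside the 7.22% of all genes. Nlrc5, the class I counterpart of Ciita, was at 9.71, 10.75 and 9.62 in Tcf1-/- and at 9.36, 9.21 and 8.86 in Tcf1-/+, a difference of 0.88 (SE 0.36, adjusted p = 0.772 from limma), or 0.52 without Tcf1-/- replicate 2.

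H2-D1, a class I heavy chain, was at 12.75, 12.83 and 12.88 against 11.84, 12.45 and 11.86, a difference of 0.78 (SE 0.24). Tapbp, which loads peptides on class I, differed by 0.64 (SE 0.21), or 0.39 over the mean of its probe sets, and B2m, the shared light chain, by 0.33 (SE 0.20), both without overlap. H2-K1, the second heavy chain, differed by 0.62 (SE 0.29) and overlapped on its brightest probe set, where it was 0.41 without Tcf1-/+ replicate 1, and all 4 of its probe sets had higher Tcf1-/- means, from 0.62 to 1.05. Of the 9 probe sets of H2-D1 above background, 8 had higher means. Heavy chain genes are near-identical in part, so their probe sets may share signal. Whether class I and class II differences differ from each other was not tested.

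**Figure D2:**
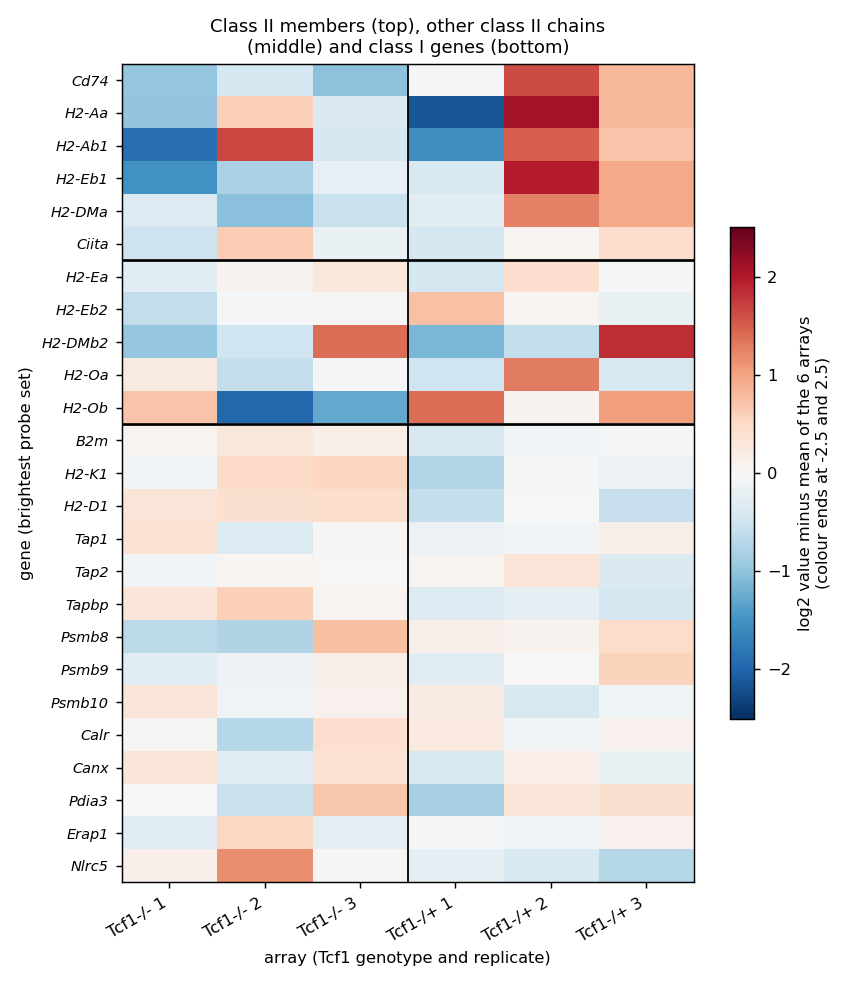
Log2 value minus the mean of the 6 arrays (colour) for class II members, other class II chains and class I genes (rows, brightest probe set) on each array (columns). Cd74, H2-Aa, H2-Eb1 and H2-DMa of the upper block are reddest on Tcf1-/+ replicates 2 and 3, while H2-D1, Tapbp, Nlrc5 and B2m of the lower block are higher on all 3 Tcf1-/- arrays than on any Tcf1-/+ array.

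**Figure D3:**
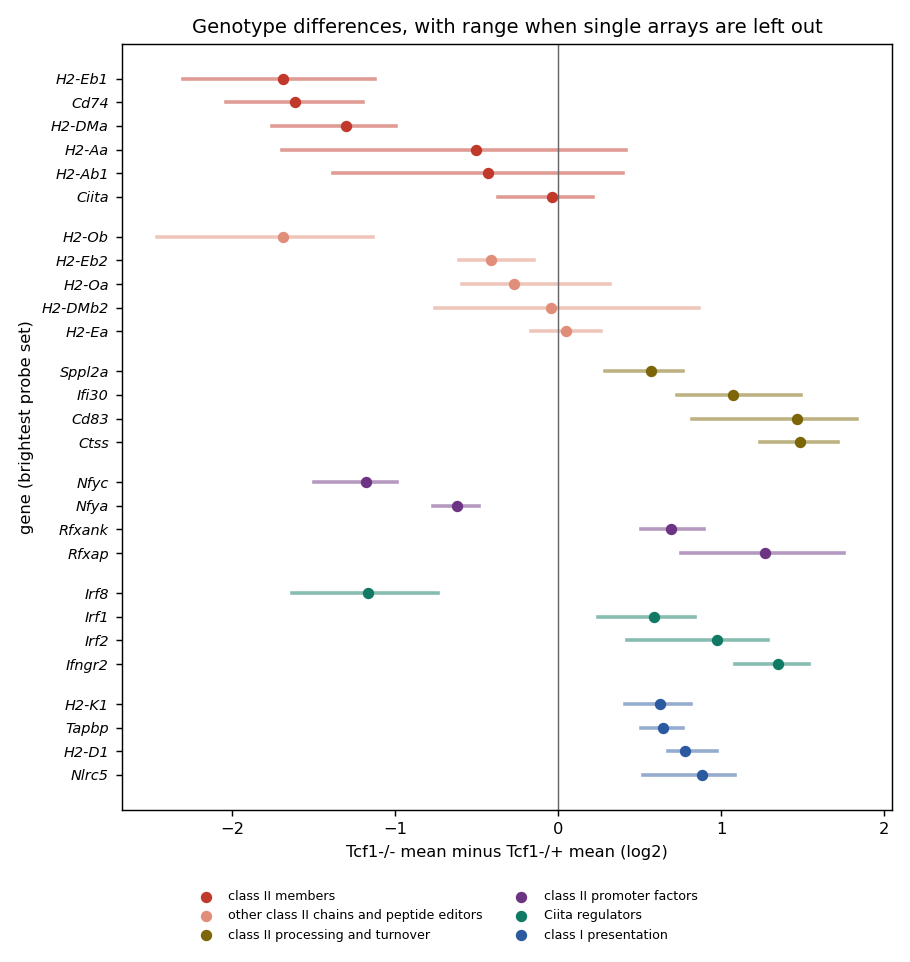
Tcf1-/- mean minus Tcf1-/+ mean in log2 units (points) for the members and the named genes of 5 related lists, with bars for the range when each array in turn is left out. The bars of Cd74, H2-Eb1 and H2-DMa stay below 0, those of H2-Aa, H2-Ab1 and Ciita cross 0, and those of Ctss, H2-D1, Tapbp and Nlrc5 stay above 0.

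Markers of cells that carry class II were read on the same arrays. Of 19 measured dendritic cell markers, 17 were above background in a genotype, 10 had a lower and 9 a higher Tcf1-/- mean, and the median difference was -0.01. Their mean level lay between 6.29 and 7.10 on Tcf1-/- and between 6.38 and 6.81 on Tcf1-/+ arrays. The highest array was Tcf1-/- replicate 2, which was also the highest for 9 of the 19 genes. Of the brightest 3, Tcf4, a plasmacytoid dendritic cell factor, differed by -0.39 (SE 0.28), Bst2 by 0.44 (SE 0.31) and Cox6a2 by 0.28 (SE 0.46).

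Of the remaining dendritic markers, 4 were highest on Tcf1-/+ replicate 2, 3 on Tcf1-/+ replicate 1, 2 on Tcf1-/+ replicate 3 and 1 on Tcf1-/- replicate 3. Genes of conventional dendritic cells, named after their values were seen, thus differed in their highest array. Zbtb46, a factor of that lineage, was at 8.61 on Tcf1-/- replicate 2 and at 7.98 on Tcf1-/+ replicate 2, and between 5.79 and 6.44 on the other 4 arrays. Itgax, which encodes CD11c, was at 9.52 on Tcf1-/- replicate 2 and between 6.46 and 7.98 elsewhere, and Ccr7 was at 8.85 there and between 5.58 and 7.02 elsewhere. Tcf1-/- replicate 2 is the array on which H2-Ab1 probe set 1450648_s_at and Ciita were highest, while Cd74 and H2-Eb1 lay on it below every Tcf1-/+ array. Xcr1, Clec10a and Cd86 were instead highest on Tcf1-/+ replicate 2, at 6.26, 6.16 and 6.49. Most class II probe sets were also highest on that array. The genotype means of Xcr1, Clec10a and Cd86 lay between 4.77 and 5.39, near or under background. On Tcf1-/+ replicate 3, where class II was also high, the dendritic mean level was 6.38 and Zbtb46 was at 6.34, while Sirpa, at 8.84, and Tcf4, at 10.26, had their highest values there. Sirpa lay between 6.37 and 7.84 on the other arrays. The part of dendritic cells in the class II differences was not tested.

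Of 15 measured B-lineage markers, 5 had a lower and 10 a higher Tcf1-/- mean, with a median of 0.09. The genotypes did not overlap for 1 lower and 3 higher genes, beside 4.94% and 7.22% of all genes. The lower gene was Pou2af1, with means of 3.41 in Tcf1-/- and 5.25 in Tcf1-/+. The higher genes were Cr2, at 6.02 and 5.04, Fcrla, at 5.74 and 5.29, and Ms4a1, at 4.16 and 3.85. Most of these means lay near or under background. Ms4a1, Ebf1, Blnk and Bank1 were under background in both genotypes, and Pax5 and Cd79a had means between 5.05 and 5.90. The mean level of the list lay between 5.34 and 5.71 on Tcf1-/- and between 5.54 and 5.87 on Tcf1-/+ arrays. Cd79b, a chain of the B-cell receptor complex, was at 8.79 on Tcf1-/+ replicate 2 and between 5.92 and 8.15 on the other arrays. Ighm, the mu heavy chain gene, was at 10.62, 6.21 and 9.59 against 11.04, 11.11 and 9.06, with overlap. The third of the brightest, Igll1, differed by 0.10 (SE 0.26).

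Of 12 measured monocyte and macrophage markers, 4 had a lower and 8 a higher mean, and the list level lay between 5.75 and 6.42 on Tcf1-/- and between 5.87 and 6.28 on Tcf1-/+ arrays. On their brightest probe sets Csf1r differed by -1.63 (SE 1.19), Lyz2 by 0.35 (SE 0.42) and Ccr2 by 1.74 (SE 0.80), all with overlap. The other probe sets of Csf1r differed by -0.88, without overlap, and by 0.35, with overlap. Those of Ccr2 differed by 0.99, 0.99 and 0.89, the last without overlap. Adgre1, Cd14, Itgam and Mertk were under background. Of 12 measured thymic epithelial markers, 4 had a lower and 8 a higher mean, and 1, Prss16, was higher without overlap, beside 7.22% of all genes, with Foxn1, Psmb11, Krt14, Cldn4 and Enpep under background. Their level lay between 5.33 and 5.69 on Tcf1-/- and between 5.15 and 5.44 on Tcf1-/+ arrays. Aire, a factor of medullary epithelium, was at 6.42, 7.20 and 8.35 on Tcf1-/+ replicates 1, 2 and 3 and between 6.52 and 6.79 on the Tcf1-/- arrays. Krt5 differed by 1.10 (SE 0.73) and Ccl25 by -0.57 (SE 0.47). The part of these cells in the class II differences was not tested.

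**Figure D4:**
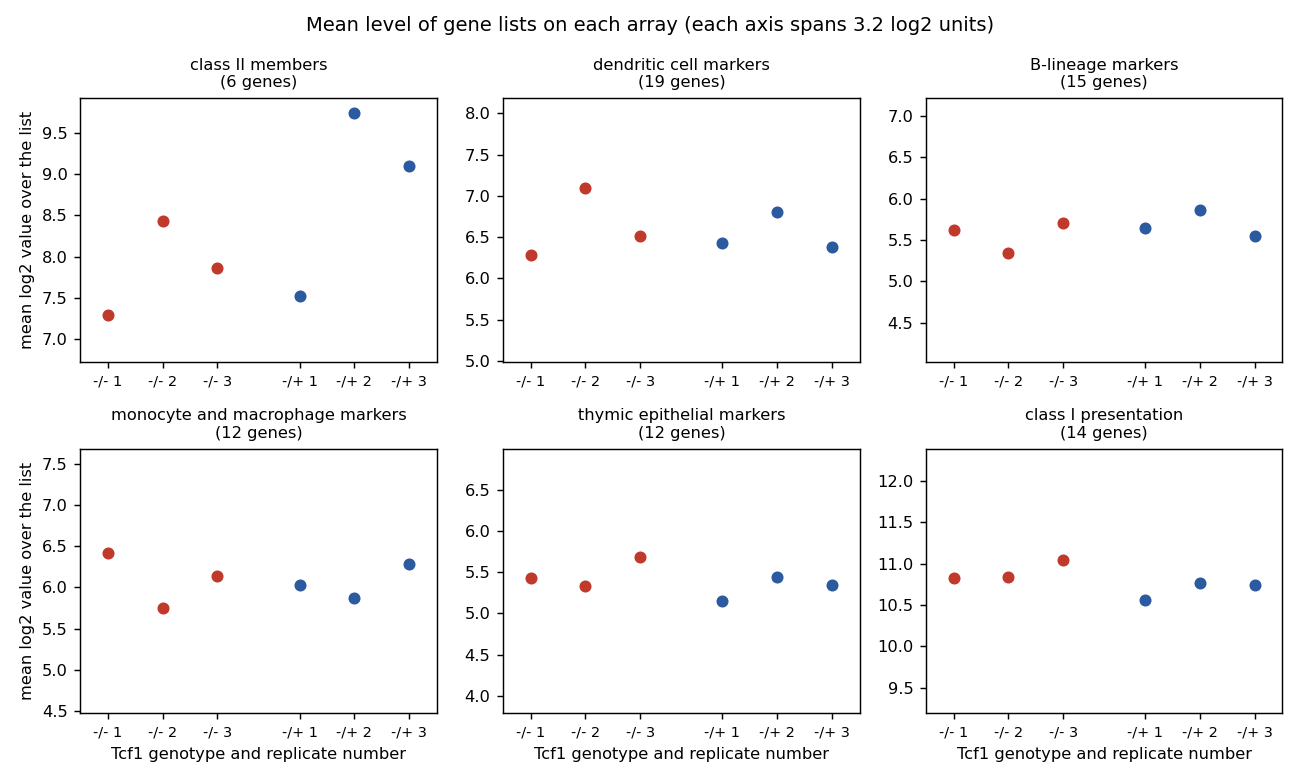
Mean log2 value over each gene list on each array, Tcf1-/- in red and Tcf1-/+ in blue, with every vertical axis spanning the same 3.2 log2 units. The class II members range from 7.29 to 9.74, while the dendritic list ranges from 6.29 to 7.10 and is highest on Tcf1-/- replicate 2.

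Of 10 genes of progenitors and of the gate, 5 had a lower and 5 a higher mean, and 0 passed limma's adjusted threshold. There was no overlap for 2 lower genes and 1 higher gene, beside 4.94% and 7.22% of all genes. The higher gene was Cd4, a co-receptor of T cells, at 8.73, 9.86 and 8.51 in Tcf1-/- and at 5.49, 7.27 and 5.53 in Tcf1-/+. Its difference of 2.93 (SE 0.61, adjusted p = 0.468 from limma) was the largest of the list, and its second probe set overlapped at 1.61. Cd3e, a chain of the T-cell receptor complex, differed by -1.66 (SE 0.55), with overlap. Cd34, a progenitor surface marker, differed by -1.24 (SE 0.36, adjusted p = 0.623 from limma). Flt3, a cytokine receptor of progenitors that dendritic cell development needs, differed by -1.53 (SE 0.42, adjusted p = 0.598 from limma). For Cd34 and Flt3, every Tcf1-/- array lay below every Tcf1-/+ array. Cd4, Cd3e and Flt3 were named after their values were seen. Notch1 differed by -0.38 (SE 0.36) and Ptprc, which encodes CD45, by 0.05 (SE 0.30).

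Genes were ranked by how closely they followed the mean of the centred members over the 6 arrays, among 9091 genes above the median level of all genes. The 8 closest were Phc3, a Polycomb subunit, 2610005L07Rik, Rsl1d1, Cnot7, a deadenylase, Prrg4, Syt11, Nlrc3 and Fgd2, an exchange factor for Cdc42, with Pearson r from 0.961 to 0.968. These are the extremes of a long ranking over 6 arrays that share the members' own high and low arrays, and are given as a description. Fgd2 was at 5.60, 6.71 and 6.45 in Tcf1-/- and at 6.24, 7.74 and 6.96 in Tcf1-/+, highest on Tcf1-/+ replicate 2. On the ranked probe sets, the brightest of each gene, the genotypes overlapped for each of the 8. Other probe sets of Cnot7 and 2610005L07Rik went both ways. Without overlap, 1430519_a_at of Cnot7 differed by 0.86, and 1429041_at and 1457673_at of 2610005L07Rik by -1.04 and 1.68. The remaining probe sets of both genes overlapped. Genes of the class II pathway were spread over the ranking, with H2-Ea at rank 417, Irf8 at 1023, H2-Oa at 1292, H2-DMb2 at 2422, H2-Ob at 5097, Ctss at 6542 and Rfxap at 9060.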

How the data were processed

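The deposited files hold log2 summaries per probe set of 6 arrays, and no label or header names the method by which the authors summarized or normalized them. That they are log2 was judged from their span, 2.15 to 14.8. The median of an array was 5.80 at the lowest and 5.87 at the highest, and nothing was rescaled. Groups came from the sample titles. Of 45101 probe sets, 64 controls were left out. The platform annotation gave 1 symbol to 34945 of the others, several to 932 and none here to 9160, and genes were named only from the first kind. Where a gene has several probe sets, that with the highest mean stands for it and is called the brightest. The genotype contrast was fitted by limma 3.58.1 (R 4.3.3), two-sided, without covariates, with Benjamini-Hochberg adjustment over all tested probe sets, and the fit was checked on simulated data. The smallest exact p for 3 against 3 arrays is 0.1. A p-value from limma weighs a genotype difference against the spread between these arrays within a genotype, which limma moderates over all probe sets. The number of arrays limits the precision.

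Members and lists were chosen with earlier results of these data known. Named genes were all members and other class II chains, and the 8 genes most like the members. Added to them were the 4 smallest unadjusted p of each other pathway list among genes above background, and the 3 brightest of each marker list. Some genes outside this rule are given too. Among them B2m, Pou2af1, Cr2, Fcrla, Ms4a1 and Prss16 are given for their lack of overlap, and so were picked by their values. Alternatives were quantile normalization, the replicate block, a filter and a floor at background, array weights, a Y-linked covariate, the mean of a gene's probe sets and leaving out arrays. Columns not used numbered 0.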

Additional observations from a re-analysis of the deposited data

How the results depend on the processing

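The median difference of the 6 members was -0.90 and lay between -1.73 and -0.51 when single arrays were left out, with -1.73 without Tcf1-/+ replicate 1 and -0.51 without Tcf1-/+ replicate 2. Without Tcf1-/- replicate 2 and Tcf1-/+ replicate 1 together, a choice made after seeing the data, it was -2.17. It was -1.30 with the Y-linked covariate. With probe sets that carry neither _s_at nor _x_at where a gene has one, also chosen after seeing the data, it was -1.44. H2-Aa has none and kept its brightest, an _x_at probe set. Between 4 and 6 members kept a lower Tcf1-/- mean in every alternative run, and 5 did under quantile normalization. Probe sets past limma's threshold numbered 0 in all 12 alternatives, the lowest adjusted p being between 0.125 and 0.692. Of the 21 named pathway genes outside the members, 18 kept their sign throughout. H2-DMb2 turned from -0.04 to 0.027 with quantile normalization and 0.034 with array weights, and lay between -0.76 and 0.86 when single arrays were left out. H2-Ea turned to -0.14 with the Y-linked covariate and lay between -0.17 and 0.26 without single arrays, and H2-Oa lay between -0.59 and 0.32. The causes were not tested. With the replicate block 0 probe sets passed and the median was -0.90. The labels do not say that a number pairs arrays, and deviations of same-numbered arrays correlated at 0.03, 0.04 and 0.01. Not every array correlated best with its own number, so the numbers were not taken as pairs. Levels near background limit what can be said of Ciita.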
